A study of Homo sapiens with 60 samples.

Results

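A set of 10 genes that the transcription factor p53 is known to switch on for cell cycle arrest, DNA repair and stress defence was followed in the astrocyte-derived line 1321N1 during treatment with arsenic, cadmium or mercury. They are CDKN1A, MDM2, DDB2, SESN1, TP53INP1, XPC, RRM2B, ZMAT3, GADD45A and FDXR. They were picked by gene name, as 10 of the 62703 genes of the count table. 1321N1 is an established human astrocytoma line. It was exposed to 2.55 µM sodium metaarsenite (As), 2.3 µM cadmium chloride (Cd) or 20 µM mercury chloride (Hg), doses that the authors set to a like toxicity, or left non-treated (nt). RNA was taken 1.5, 3, 6 or 12 h after the start and at 24 h, with 3 libraries in each of the 20 groups and 60 libraries in all.

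The libraries were made by 3′ mRNA sequencing, which reads only the 3′ end of a transcript, so that long genes do not collect more reads. Totals ran from 2215276 to 4404609 counts per library, with a median of 3291417. Levels are given as CPM, which are counts scaled to a common normalized library size, and changes as log2 fold changes (LFC) with their standard error (SE). LFCs and adjusted p values come from the quasi-likelihood test of edgeR, fitted on all 60 libraries and adjusted by Benjamini-Hochberg over 12341 genes within each comparison, and a gene was taken as changed at an adjusted p under 0.05. The labels call the triplicates technical, so the p values may measure only technical spread. In bulk RNA, fewer cells of a kind and less RNA per cell cannot be told apart. Of the astrocyte markers, GFAP reached at most 3 counts, S100B 1 count and SLC1A3 13 counts in any library, and AQP4 and ALDH1L1 had 0 counts throughout, whereas VIM lay at 3014 to 5782 CPM, CD44 at 223 to 499 CPM and SOX9 at 29.7 to 123 CPM. Markers of immune (PTPRC, at most 7 counts) and endothelial (PECAM1, 2 counts) cells were near 0. Epithelial markers differed, with EPCAM at no more than 2 counts, KRT8 at 2.17 to 17.1 CPM and KRT18 at 37.4 to 89.2 CPM. COL1A1, a fibroblast collagen, lay at 498 to 918 CPM, and PDGFRB at 4.46 to 24.1 CPM. The summed level of the 14 markers of other cells was 757.3 to 1000.9 CPM in non-treated, 642.8 to 926.2 in arsenic, 731.9 to 945.0 in cadmium and 608.6 to 929.6 CPM in mercury libraries. At 24 h COL1A1 was lower under arsenic (LFC -0.45) and mercury (-0.64), SOX9 (-0.98) and CD44 (-0.46) lower under arsenic, and NES lower under mercury (-1.62). NES had at most 25 counts in any library, and its mercury and non-treated libraries overlapped at 24 h (means 1.25 and 3.93 CPM). The keratins split under mercury, with KRT18 higher (0.73) and KRT8 lower (-1.14). The part of these shifts in the results was not tested.

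p53 is held at a low level in resting cells by MDM2, an E3 ubiquitin ligase that marks it for degradation and is itself a p53 target, which closes a feedback loop. After DNA damage and other stresses p53 accumulates, binds paired copies of a short half-site in promoters and introns, and raises genes that halt the cell cycle, repair DNA or trigger cell death. Several of these genes also answer to other regulators: GADD45A and SESN2 are known targets of ATF4 in the integrated stress response, and CDKN1A is reached by many pathways. p53 protein was not measured in these libraries.

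The p53 response elements found in the members are shown because the list is one of known p53 targets. Each was found by a search of the GRCh38 genome for 2 adjacent copies of the p53 half-site consensus, 20 bases with at most 2 mismatches and with the central C and G of both copies intact, within 3000 bases on either side of the start site of the canonical GENCODE transcript. The motif reads nearly the same on both strands. The 20 bases of the site are in capitals, with 5 bases of flank in lower case, 5′ to 3′ on the strand of the gene.
CDKN1A: gtcagGAACATGTCCCAACATGTTGagctc
DDB2: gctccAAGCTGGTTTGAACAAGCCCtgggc
GADD45A: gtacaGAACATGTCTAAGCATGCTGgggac
MDM2: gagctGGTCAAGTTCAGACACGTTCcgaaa
ZMAT3: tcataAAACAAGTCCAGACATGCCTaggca

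The CDKN1A site (chr6:36676449-36676468) begins 2265 bases upstream of the start site and has 2 mismatches. The DDB2 site (chr11:47214969-47214988) begins 5 bases before the start site, runs across it and has 1 mismatch. The other sites printed lie in introns. That of GADD45A (chr1:67686775-67686794) begins 1574 bases past the start with 1 mismatch, that of MDM2 (chr12:68808923-68808942) 746 bases past it with 2, and that of ZMAT3 (chr3:179070188-179070207, minus strand) 1602 bases past it with 0 mismatches. RRM2B also held a match, in an intron 2102 bases past its start, with 1 mismatch. Thus 6 of the 10 members held a match, against 930 of 20033 gene windows (4.64%). Because the members were picked as known p53 targets, this share is not an independent test of the list. FDXR, SESN1, TP53INP1 and XPC had no such letters in this window. Genes with and without a match were found among those that moved and among those that did not. No other annotated gene overlapped the last 400 exonic bases of any member on its strand, and none of the 351 stretches of 50 bases in each end occurred in another gene's transcripts.

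In non-treated cells the members spanned a wide range. Median CPM over the 15 non-treated libraries was 86.3 for GADD45A, 63.5 for ZMAT3, 56.8 for DDB2, 46.6 for MDM2, 43.9 for CDKN1A, 35.0 for XPC, 24.5 for FDXR, 15.3 for RRM2B, 4.32 for SESN1 and 0.898 for TP53INP1. The order is one of 3′ tags in CPM and is not scaled by length. Ranges over the non-treated libraries overlapped between each member and the next in this order from GADD45A to RRM2B, while all SESN1 values (3.08 to 6.63 CPM) lay below all RRM2B values (8.67 to 20.7 CPM) and above all TP53INP1 values (0 to 2.89 CPM). TP53INP1, which helps direct p53 towards cell death genes, had 0 to 11 counts per library and 0 in 9 libraries, and did not pass the filter on low counts, so that it was not tested. SESN1, with 4 to 34 counts, was tested but with little precision.

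The 10 genes did not move as a block. Over the 15 comparisons with non-treated cells of the same time, 9 tested members gave 135 values, of which 29 passed the test, 17 higher and 12 lower. Mercury gave 9 of the rises and 7 of the falls, cadmium 4 and 4, and arsenic 4 and 1. The rises were those of GADD45A in 11 comparisons, CDKN1A in 5 and MDM2 in 1. The falls were those of DDB2 in 6 comparisons, FDXR in 3, ZMAT3 in 2 and XPC in 1. SESN1 and RRM2B passed in 0 of the 15 by edgeR and by DESeq2, and had an unadjusted p under 0.05 in 0 and 1 of them.

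**Figure D1:**
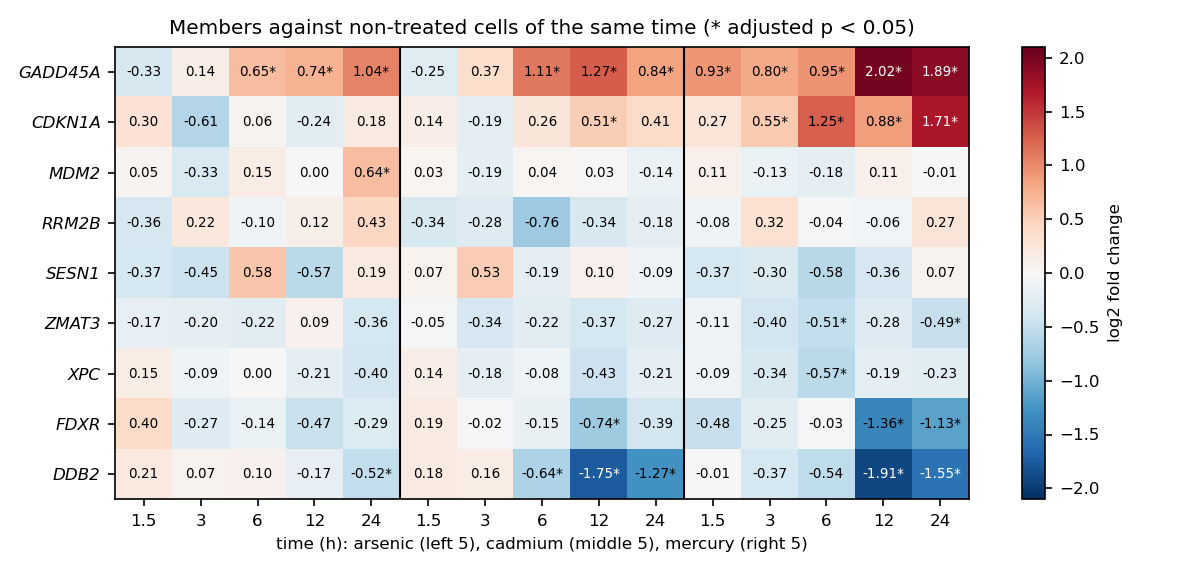
LFC of each tested member (rows) against non-treated cells of the same time, for each metal and time (columns). The colour gives the LFC and an asterisk marks an adjusted p under 0.05. GADD45A is marked at all 5 mercury times, CDKN1A from 3 h of mercury, and DDB2 is lower at 12 and 24 h of cadmium and mercury.

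Each count of members is given beside the background, the share of all 12341 genes called in the same direction. Under arsenic, no member passed at 1.5 h, when 0.0648% of all genes were higher and 0.0081% lower, or at 3 h (0.122% and 0.0162%). At unadjusted p under 0.05, 0 members passed at 1.5 h and 2 at 3 h, and DESeq2 called 0 and 1. At 6 h 1 member was higher (background 0.608%, with 0.308% lower) and 1 at 12 h (2.37%, with 1.74% lower). At 24 h, 2 members were higher (6.54%) and 1 lower (7.75%). Under cadmium, no member passed at 1.5 h, when 0% of genes were higher and 0% lower, or at 3 h (0.203% and 0%). Here 0 and 2 members passed at unadjusted p, and DESeq2 called 0 at both times. At 6 h 1 member rose and 1 fell (1.6% and 0.446%), 2 rose and 2 fell at 12 h (5.19% and 2.99%), and 1 rose and 1 fell at 24 h (1.56% and 0.632%). Under mercury, 1 member was higher at 1.5 h (0.478%, with 0.0891% lower) and 2 at 3 h (1.39%, with 0.154% lower). At 6 h 2 rose and 2 fell (4.49% and 2.99%), 2 rose and 2 fell at 12 h (8.89% and 7.16%), and 2 rose and 3 fell at 24 h (13.9% and 13.9%). The median LFC of the 9 tested members stayed near that of all genes at 24 h of mercury, at -0.011 against -0.0211, with rises and falls side by side. It was 0.183 against 0.00041 at 24 h of arsenic, -0.184 against -0.00694 at 24 h of cadmium, and -0.34 against -0.0158 at 12 h of cadmium.

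CDKN1A encodes p21, the inhibitor of cyclin-dependent kinases through which p53 holds cells before S phase. It answered mainly to mercury. At 24 h the non-treated libraries had 42.5, 38.1 and 42.4 CPM and the mercury libraries 128.4, 127.1 and 148.4 CPM. The lowest mercury library was far above every non-treated one, with a ratio of means of 3.28 and an LFC of 1.71 (SE 0.15, adjusted p = 1.71e-14). The rise was present at 3 h (LFC 0.55, SE 0.15, adjusted p = 0.0427), at 6 h (1.25, SE 0.17, adjusted p = 3.48e-08) and at 12 h (0.88, SE 0.16, adjusted p = 1.53e-05). The call at 3 h was lost with RLE size factors and without any 1 of 5 replicates, with an adjusted p of up to 0.281. At 6 h the non-treated group was itself low. Non-treated cells had 31.0, 29.6 and 31.1 CPM at 6 h, and these were below their own 1.5 h libraries (LFC -0.73, adjusted p = 0.0252), whereas mercury cells had 72.5, 89.2 and 57.7 CPM.

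Under cadmium, CDKN1A passed the test at 12 h alone, with 65.8, 68.8 and 55.8 CPM against 43.9, 47.2 and 42.7 CPM in non-treated cells. The groups did not overlap, yet the rise was modest (LFC 0.51, SE 0.16, adjusted p = 0.0334) and was lost without any 1 of 5 replicates (adjusted p up to 0.147). Under arsenic it passed at no time with the filter used. At 24 h arsenic libraries had 56.2, 43.7 and 40.3 CPM, overlapping the non-treated ones (LFC 0.18, adjusted p = 0.513). At 3 h of arsenic all 3 libraries (33.4, 36.3 and 45.3 CPM) lay below the non-treated ones (57.7, 54.8 and 63.6 CPM), with an LFC of -0.61 and an adjusted p of 0.127, which was 0.0409 in DESeq2 and 0.0419 in edgeR with no filter on low counts. Tested directly at 24 h, CDKN1A was lower in arsenic than in mercury cells (LFC -1.53, adjusted p = 3.4e-12) and lower in cadmium than in mercury cells (LFC -1.30, adjusted p = 3.09e-10).

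GADD45A, which binds PCNA and takes part in the G2/M checkpoint and in excision repair, rose under all 3 metals. It rose earliest under mercury, where 1.5 h libraries had 265.6, 240.7 and 230.9 CPM against 135.1, 142.6 and 109.4 CPM in non-treated cells. All 3 mercury libraries were above the non-treated range (LFC 0.93, SE 0.17, adjusted p = 0.000233). The mercury LFC was 0.80 at 3 h, 0.95 at 6 h, 2.02 (SE 0.17, adjusted p = 4.33e-15) at 12 h and 1.89 (SE 0.17, adjusted p = 1.33e-14) at 24 h. At 3 h, mercury replicate 2 (190 CPM) stood above the others (114 and 117 CPM), and without it the LFC was 0.50 with an adjusted p of 0.311. At 12 h mercury cells had 268.9, 323.5 and 271.7 CPM and non-treated cells 68.0, 93.0 and 54.0 CPM, a ratio of means of 4.02 and the largest LFC of any tested member in the 15 comparisons. At 24 h the values were 334.2, 349.0 and 282.5 CPM under mercury and 72.4, 72.5 and 115.4 CPM without metal, where replicate 3 stood above the rest.

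Under cadmium, GADD45A was higher at 6 h (LFC 1.11, SE 0.17, adjusted p = 7.09e-06), 12 h (1.27, SE 0.17, adjusted p = 9.29e-08) and 24 h (0.84, SE 0.17, adjusted p = 0.00101). The 6 h cadmium libraries had 149.6, 190.1 and 207.0 CPM against 70.2, 93.6 and 88.0 CPM, with no overlap. The 24 h call was lost when only the 6 libraries compared were fitted (adjusted p = 0.0801). Under arsenic it was higher at 6 h (LFC 0.65, SE 0.18, adjusted p = 0.0473), 12 h (0.74, SE 0.17, adjusted p = 0.00435) and 24 h (1.04, SE 0.17, adjusted p = 3.83e-06). The 6 h call was lost in DESeq2 and without any 1 of 5 replicates (adjusted p up to 0.354), and the 12 h call without arsenic replicate 3 or without non-treated replicate 3 (up to 0.0744). The arsenic libraries at 24 h lay close together at 176.9, 181.2 and 175.5 CPM. Non-treated GADD45A itself moved with time in culture, being lower at 12 h than at 1.5 h (LFC -0.86, adjusted p = 0.00151) and at 24 h (LFC -0.58, adjusted p = 0.0482). In the 4 comparisons of non-treated cells with their 1.5 h libraries, the members called were CDKN1A, lower at 6 h, and GADD45A, lower at 12 and 24 h. The background of these comparisons was 0% higher and 0.122% lower at 3 h, whereas the shares were 0.211% and 0.276% for the 6 h libraries, 2.34% and 1.75% for those of 12 h, and 1.84% and 1.45% for those of 24 h.

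**Figure D2:**
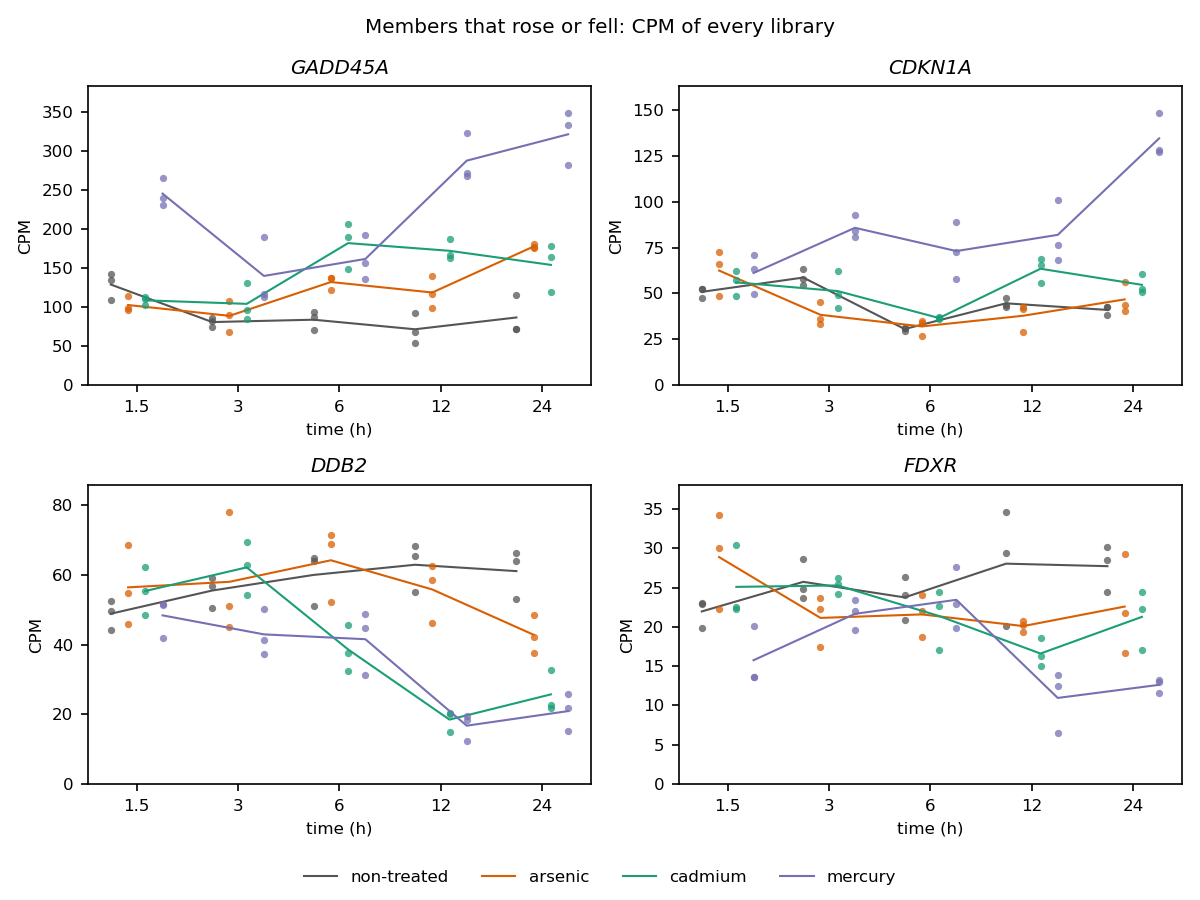
CPM of CDKN1A, GADD45A, DDB2 and FDXR in every library (points) against time in hours, with a line through the mean of the 3 libraries of each metal and of non-treated cells. At 24 h mercury libraries of CDKN1A lie at 127.1 to 148.4 CPM above all others, while DDB2 in cadmium and mercury libraries lies below every non-treated library at 12 and 24 h.

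DDB2 encodes the damage-sensing subunit of the UV-DDB complex, which finds ultraviolet lesions in chromatin and hands them to XPC. It fell under cadmium and mercury, in the opposite direction to CDKN1A and GADD45A. At 12 h non-treated cells had 68.2, 65.5 and 55.0 CPM, cadmium cells 14.97, 20.1 and 20.4 CPM, and mercury cells 18.4, 12.3 and 19.5 CPM. Every cadmium and mercury library was below every non-treated one. The LFC was -1.75 (SE 0.20, adjusted p = 5.68e-10) for cadmium and -1.91 (SE 0.20, adjusted p = 1.63e-11) for mercury, and the mean of the metal libraries was 0.294 and 0.266 of that of non-treated cells. At 24 h the LFC was -1.27 (SE 0.19, adjusted p = 1.64e-06) for cadmium, with 22.7, 21.8 and 32.7 CPM, and -1.55 (SE 0.20, adjusted p = 2.06e-09) for mercury, with 25.8, 15.2 and 21.8 CPM, against 66.2, 63.9 and 53.1 CPM without metal. Those 4 falls passed under the 12 alternatives that set no limit on the LFC, and each LFC was also beyond 1.

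At 6 h the DDB2 values were at the edge of the test. Cadmium gave an LFC of -0.64 (SE 0.19, adjusted p = 0.0488), lost with RLE size factors, with the replicate number as a block and without any 1 of 4 replicates (adjusted p up to 0.243). Mercury gave an LFC of -0.54 with an adjusted p of 0.055, which was 0.0452 in DESeq2, 0.0471 with no filter, 0.0481 with the stricter filter and 0.0469 without mercury replicate 1. Under arsenic DDB2 passed at 24 h only, with 48.5, 42.3 and 37.7 CPM, an LFC of -0.52 (SE 0.18, adjusted p = 0.0409) and a loss of the call without any 1 of 4 replicates (up to 0.169). The difference between metals was itself tested. At 12 h DDB2 was higher in arsenic than in cadmium cells (LFC 1.57, adjusted p = 2.53e-08) and than in mercury cells (LFC 1.74, adjusted p = 1.84e-09). At 24 h the same differences were 0.75 (adjusted p = 0.00564) and 1.03 (adjusted p = 0.000146). Cadmium and mercury were not told apart at 12 h (LFC 0.16, adjusted p = 0.834) or at 24 h (LFC 0.28, adjusted p = 0.381).

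XPC, the lesion sensor that starts global genome nucleotide excision repair, changed little. It was lower at 6 h of mercury, with 22.2, 21.2 and 25.8 CPM against 38.8, 32.2 and 32.7 CPM (LFC -0.57, SE 0.17, adjusted p = 0.0272). The groups did not overlap, but the call was lost under 7 of those 12 alternatives, with an adjusted p of up to 0.159. RRM2B, the p53-inducible small subunit of ribonucleotide reductase, supplies nucleotides for repair outside S phase. Its values ran from 7.27 to 22.9 CPM over all libraries. The lowest group was cadmium at 6 h, with 8.64, 8.20 and 9.60 CPM against 14.3, 14.99 and 15.4 CPM, an LFC of -0.76 (SE 0.27, adjusted p = 0.164). At 24 h of cadmium its libraries were spread from 7.27 to 21.6 CPM, and RRM2B did not pass between arsenic and cadmium cells (LFC 0.61, adjusted p = 0.101), but did without cadmium replicate 3 (LFC 1.04, adjusted p = 0.00617).

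FDXR, a mitochondrial ferredoxin reductase that feeds electrons to steroid and iron-sulfur cluster synthesis, fell in some of the comparisons in which DDB2 fell. Under mercury it had 13.9, 6.48 and 12.5 CPM at 12 h against 29.4, 34.6 and 20.2 CPM without metal, and 11.6, 13.0 and 13.2 CPM at 24 h against 24.5, 30.1 and 28.6 CPM. No mercury library overlapped the non-treated ones at either time. The LFC was -1.36 (SE 0.22, adjusted p = 3.43e-06) and -1.13 (SE 0.22, adjusted p = 3.22e-05). Under cadmium it fell at 12 h (14.97, 16.2 and 18.6 CPM, LFC -0.74, SE 0.21, adjusted p = 0.0175), a call lost without any 1 of 4 replicates (up to 0.158). FDXR was not called at 6 or 24 h of cadmium (LFC -0.15 and -0.39, adjusted p = 0.824 and 0.409), where DDB2 was. Under arsenic it was called at no time (LFC -0.29 at 24 h, adjusted p = 0.386).

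MDM2 rose in 1 comparison. At 24 h arsenic libraries had 57.9, 58.2 and 66.9 CPM and non-treated libraries 34.8, 38.4 and 44.1 CPM. The groups did not overlap (LFC 0.64, SE 0.14, adjusted p = 0.000798), and the call held under the 12 alternatives that set no limit on the LFC. At the same time mercury cells had 31.8, 47.4 and 37.0 CPM (LFC -0.01, SE 0.15, adjusted p = 0.966) and cadmium cells 30.5, 40.4 and 35.9 CPM (LFC -0.14, adjusted p = 0.786), both overlapping the non-treated range. MDM2 was higher in arsenic than in cadmium cells (LFC 0.78, adjusted p = 5.93e-05) and than in mercury cells (LFC 0.65, adjusted p = 0.000973). The order of the metals at 24 h thus differed between members, with CDKN1A and GADD45A highest in mercury cells and MDM2 highest in arsenic cells.

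ZMAT3, a zinc finger protein that binds RNA and regulates splicing downstream of p53, was lower under mercury at 6 h (LFC -0.51, SE 0.14, adjusted p = 0.0163) and at 24 h (LFC -0.49, SE 0.14, adjusted p = 0.00747). The 6 h call was lost with no filter on low counts and without mercury replicate 1, mercury replicate 2 or non-treated replicate 2 (up to 0.129). At 24 h it had 48.8, 40.6 and 43.6 CPM against 70.8, 50.7 and 64.3 CPM, with a narrow gap between the groups, and the call was lost without mercury replicate 2 or without non-treated replicate 1 (up to 0.0857). SESN1, which restrains mTORC1 under stress, had an LFC between -0.58 and 0.58 in all 15 comparisons, with an SE of 0.40 to 0.44, so that changes of that size were not detectable at this depth. TP53INP1 had 7, 10 and 11 counts in arsenic libraries at 24 h, 5, 5 and 9 under cadmium, 9, 7 and 4 under mercury, and 7, 5 and 0 in non-treated ones.

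**Figure D3:**
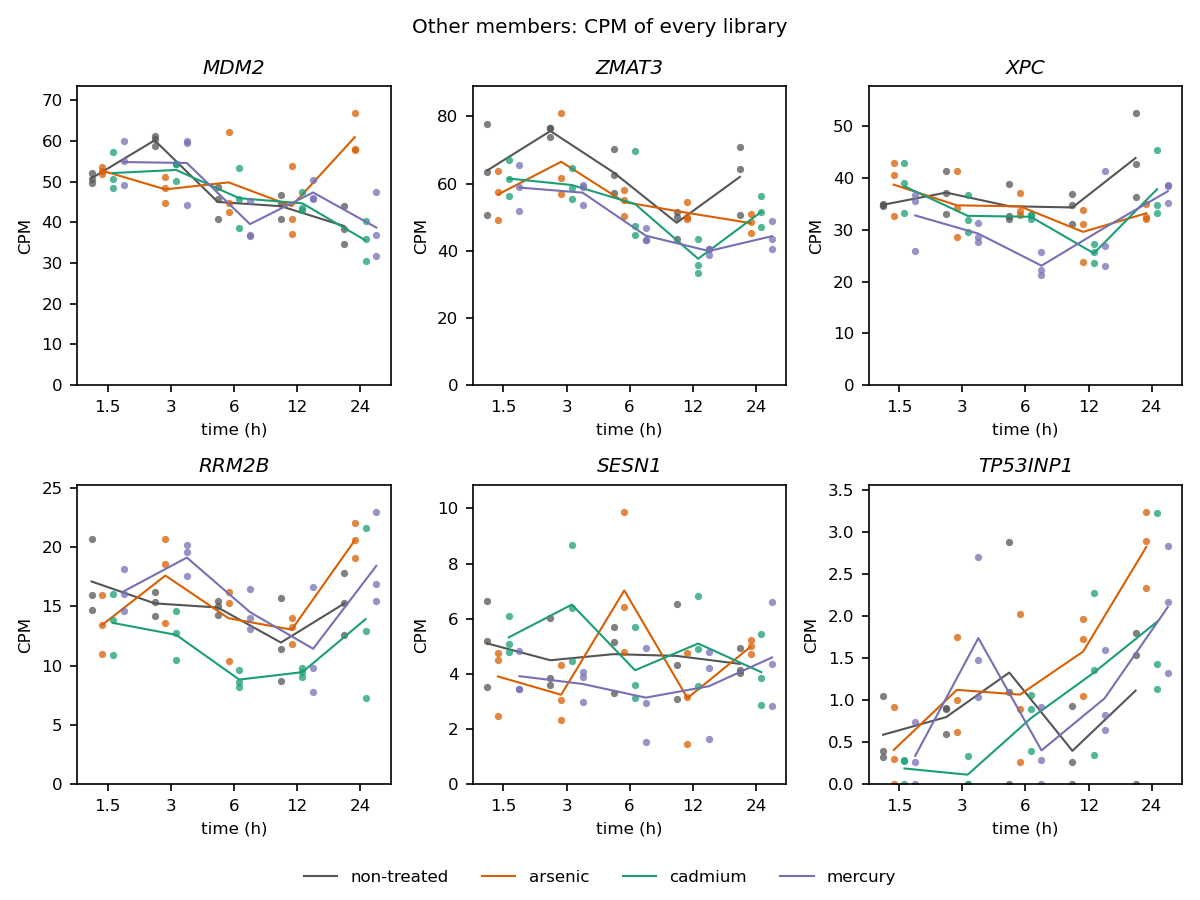
CPM of MDM2, ZMAT3, XPC, RRM2B, SESN1 and TP53INP1 in every library (points) against time in hours, with lines through the group means, coloured by metal. MDM2 in arsenic libraries lies at 57.9 to 66.9 CPM at 24 h, above the other libraries of that time, while most other groups overlap.

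Metals were compared with each other at 12 and 24 h, at doses that differ but were set to a like toxicity. At 12 h, 1 member was higher and 2 lower in arsenic than in cadmium cells (background 1.9% and 3.87%), 2 higher and 2 lower in arsenic than in mercury cells (2.42% and 4.42%), and 1 lower in cadmium than in mercury cells (1.81%, with 1.48% of all genes higher). At 24 h the counts were 2 higher for arsenic against cadmium (4.2%, with 5.96% of all genes lower), 3 higher and 2 lower for arsenic against mercury (4.59% and 6.78%), and 1 higher and 2 lower for cadmium against mercury (9.7% and 10.3%). GADD45A was lower in cadmium than in mercury cells at 12 h (LFC -0.74, adjusted p = 0.00234) and at 24 h (LFC -1.06, adjusted p = 7.92e-07). Between arsenic and cadmium at 24 h its difference was 0.20, with an adjusted p of 0.497. FDXR was higher in cadmium than in mercury cells at 24 h (LFC 0.74, adjusted p = 0.0117), a call lost without cadmium replicate 3 or without mercury replicate 1 (up to 0.0758).

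Whether a metal's effect at 24 h differed from its effect at 6 h was tested as a difference of LFCs. For mercury, 1 member had a greater LFC at 24 h and 2 a lower one (background 2.47% and 3.33%). GADD45A had a difference of 0.95 (SE 0.24, adjusted p = 0.00897), DDB2 had a difference of -1.01 (SE 0.27, adjusted p = 0.0126), and FDXR had a difference of -1.10 (SE 0.30, adjusted p = 0.0154). For arsenic (background 1.26% and 1.85%) and cadmium (0.259% and 0.365%) edgeR and DESeq2 called 0 members, and 2 and 1 members passed at an unadjusted p under 0.05.

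Patterns over the 20 groups were compared as Pearson's r of group mean log2 CPM. The r values are a description only, because the points are times of the same treatments and are not independent of each other. DDB2 and FDXR ran together (r = 0.798), as did DDB2 and ZMAT3 (r = 0.749), while GADD45A ran against FDXR (r = -0.858) and DDB2 (r = -0.773). For CDKN1A r was -0.074 with MDM2 and 0.6 with GADD45A. In a search of 7253 genes whose mean reached 50 counts, those most like GADD45A were ATF3 (r = 0.928) and PPP1R15A (r = 0.907), both known genes of the integrated stress response. Those most like DDB2 were B4GALT7 (r = 0.902) and CPSF3 (r = 0.875), those most like CDKN1A were FAM91A1 (r = 0.888) and DGKD (r = 0.876), and those most like FDXR were NFS1 (r = 0.907), the cysteine desulfurase of iron-sulfur cluster synthesis, and AGPAT1 (r = 0.88). The cause of these likenesses was not tested.

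The nearest relatives of the members did not follow them in all cases, with 13 of 16 relatives tested at 24 h. SESN2, a sestrin and known target of ATF4, is also counted below among the other known p53 targets. It rose where SESN1 was not called. Non-treated cells had 21.0 ± 2.49 CPM (SD, n = 3), against 111 ± 14.2 CPM in arsenic, 54.7 ± 8.40 CPM in cadmium and 145.2 ± 17.6 CPM in mercury cells, with LFCs of 2.39 (adjusted p = 2.26e-18), 1.37 (adjusted p = 3.68e-08) and 2.78 (adjusted p = 5.01e-22). GADD45B, the stress-inducible relative of GADD45A, was lower in arsenic (LFC -0.65, adjusted p = 2.87e-05) and higher in cadmium (1.403, adjusted p = 6.96e-17) and mercury cells (1.63, adjusted p = 1.94e-20). Its direction at 24 h of arsenic was thus opposite to that of GADD45A. At 3 h of arsenic GADD45B was higher (LFC 0.55, adjusted p = 0.00624). CDKN1C, the p57 inhibitor, had 16 to 41 counts in cadmium libraries at 24 h against 0 to 6 in non-treated ones (LFC 3.40, SE 0.72, adjusted p = 0.00183). Mercury libraries of that time had 2 to 10 counts. CDKN1C passed the filter on low counts only through this cadmium group, so its adjusted p gives no independent support for the rise. CDKN1B, the p27 inhibitor, was lower under mercury (LFC -0.72, adjusted p = 0.0408). RRM2, the S phase partner of the reductase, was higher under mercury (LFC 0.45, adjusted p = 2.87e-06). CETN2, which sits with XPC, was lower under mercury (LFC -0.63, adjusted p = 4.13e-05). DDB1, the partner of DDB2, was not called at 24 h (LFC -0.05, 0.00 and -0.12 for arsenic, cadmium and mercury), nor was MDM4 (-0.36, -0.20 and -0.26).

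**Figure D4:**
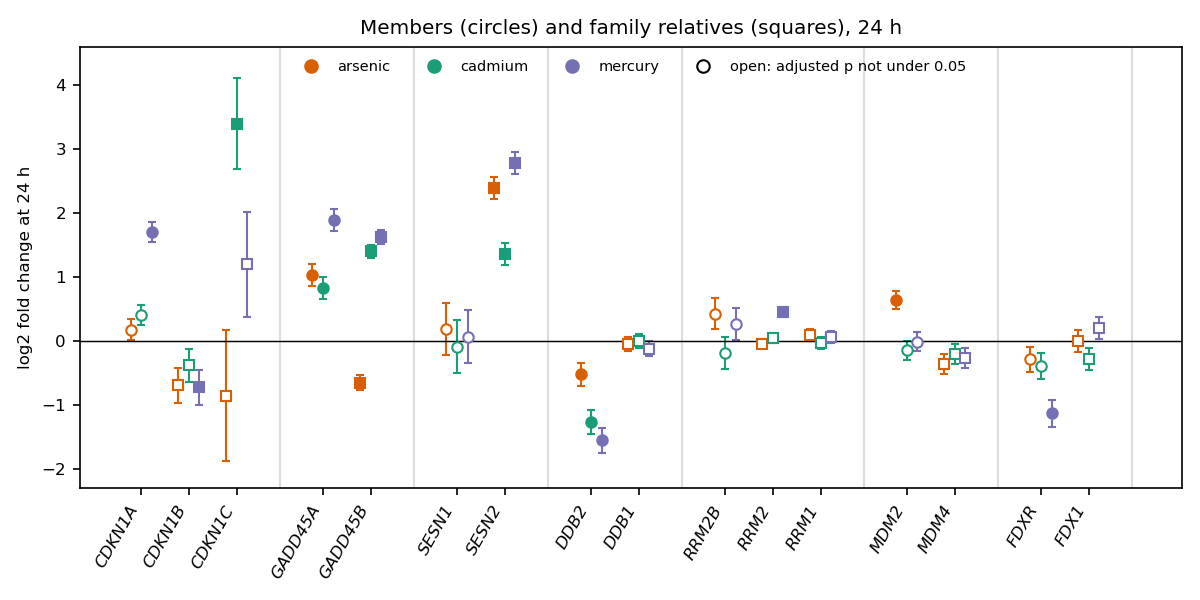
LFC at 24 h of members and their family relatives against non-treated cells, with bars of 1 SE, coloured by metal. SESN2 lies at 1.37 to 2.78 where SESN1 lies near 0, and GADD45B is at -0.65 under arsenic where GADD45A is at 1.04.

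Of 40 other known p53 targets, 36 were tested. At 24 h of arsenic 7 were higher and 3 lower (median LFC 0.0914), against 6.54% and 7.75% of all genes. Cadmium at 24 h gave 4 higher and 3 lower (-0.183), against 1.56% and 0.632%, and at 24 h of mercury 8 and 9 (0.0382), against 13.9% and 13.9%. GDF15, a secreted stress cytokine that ATF4 also raises, had the largest LFC of this list at 24 h of each metal, at 3.93, 1.92 and 4.63. PMAIP1, which encodes the cell death protein NOXA, was higher under arsenic (LFC 0.56, adjusted p = 0.000373), cadmium (0.41, adjusted p = 0.0481) and mercury (1.54, adjusted p = 1.53e-17). KITLG, the ligand of the KIT receptor, was higher under arsenic (LFC 0.99, adjusted p = 0.000379) and mercury (1.37, adjusted p = 3.1e-07). FBXO22, a ubiquitin ligase subunit, was lower under cadmium (LFC -1.02, adjusted p = 9.72e-09) and mercury (-0.60, adjusted p = 0.000114). The targets that fell under mercury also included TP53I3, PHLDA3, POLH and TRIAP1.

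Regulators of p53 were counted at 24 h of each metal. Of 18, 0 were higher and 4 lower at 24 h of arsenic (background 6.54% and 7.75%). Among the 4 was USP7 (LFC -0.33, adjusted p = 0.00466), which removes ubiquitin from p53 and MDM2. The others included the acetyltransferase EP300 (LFC -0.49, adjusted p = 0.0186) and DAXX (LFC -0.43, adjusted p = 0.0111). Under mercury at 24 h 1 was higher and 0 were lower (background 13.9% in each direction). The higher one was HIPK2, a kinase of p53 (LFC 0.63, adjusted p = 0.00042). HIPK2 was also higher at 6 and 12 h of mercury (LFC 0.77 and 0.91, adjusted p = 0.000115 and 1.49e-06). Under cadmium it was higher at 6 and 12 h too (LFC 0.74 and 0.84, adjusted p = 0.000677 and 1.99e-05). Another regulator was lower at 6 h and at 12 h of mercury (1 at each time, background 2.99% and 7.16%). At 24 h of cadmium edgeR and DESeq2 called 0 regulators, and 2 had an unadjusted p under 0.05. The background there was also small, at 1.56% higher and 0.632% lower. Of 38 genes of excision repair other than the members, 35 were tested. At 24 h of mercury 3 were higher and 7 lower (median LFC -0.121), beside a background of 13.9% in each direction. At 24 h of arsenic 1 was higher and 3 lower (0.0318), beside 6.54% and 7.75%. At 24 h of cadmium both tools called 0, beside 1.56% and 0.632%, and 3 had an unadjusted p under 0.05 (median -0.101). UVSSA, of transcription-coupled repair, was lower under arsenic (LFC -0.79, adjusted p = 0.00264) and mercury (-0.97, adjusted p = 8.69e-05), and CDK7, a kinase of TFIIH, was higher under mercury (0.79, adjusted p = 0.0373).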

How the data were processed

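The authors sequenced 3′ mRNA libraries, aligned the reads to GRCh38 with STAR 2.7.9a, counted those on exons of the GENCODE basic annotation by strand, and deposited raw whole-number counts per gene. Groups came from the sample labels. Counts were analysed in R 4.3.3 with edgeR 4.0.16: filterByExpr (minimum count 10) kept 12341 of 28620 genes with a count, TMM factors ran from 0.934 to 1.03, and 1 quasi-likelihood model held 20 group means (common biological coefficient of variation 0.12). Adjusted p values are by Benjamini-Hochberg within each comparison. Members, gene lists and tests were chosen with earlier results of these data known, so no list gives independent support. Named genes are the members, their tested relatives, the 3 largest called LFCs of each list at 24 h of each metal, and for members called in at least 3 comparisons the 2 genes most alike over groups. TP53I3, PHLDA3, POLH and TRIAP1 were named outside that rule, after their values were seen. The values of 1 listed gene are not reported here.

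On counts simulated for mercury against non-treated cells at 24 h, with 200 of 12341 genes changed 2-fold, 163 were recovered, 11 unchanged genes were called in error, and a comparison with no true change gave 0 calls. The changed genes were drawn without those of low mean count, as many higher as lower. In the data 1712 genes were called higher and 1721 lower in that comparison. The simulated rates therefore need not hold for the data or for genes with low counts such as SESN1. No 2 replicates were copies (lowest chi-square per degree of freedom 2.02 over 60 pairs). Alternatives were DESeq2 1.42.0, a replicate block, RLE size factors, filtering of low counts switched off or made stricter (30 counts in 3 libraries), only the libraries compared, an LFC beyond 1, and leaving out each replicate of an arm at all times. Response elements were searched in GRCh38 with GENCODE start sites using Python 3.11.15.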

Additional observations from a re-analysis of the deposited data

Results flagged for a closer look

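The effect of mercury differed between 24 h and 6 h for 3 members, by a test of the difference between the LFCs in edgeR. DDB2 had a difference of -1.01 (adjusted p = 0.0126), with a range of -1.21 to -0.76 over the 12 alternatives that set no limit on the LFC, and lost the call without mercury replicate 2 and without non-treated replicate 2 (adjusted p up to 0.172). FDXR had a difference of -1.10 (adjusted p = 0.0154), and GADD45A one of 0.95 (adjusted p = 0.00897). Both lost the call without mercury replicate 1, mercury replicate 2 or non-treated replicate 2, with an adjusted p of up to 0.117 for FDXR and 0.124 for GADD45A. All 3 kept their direction under these 12 alternatives.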

How the results depend on the processing

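Of 50 called member values (29 against non-treated cells, 18 between metals and 3 between times), 31 passed under the 12 alternatives that set no limit on the LFC, and 0 reversed under these. Requiring an LFC beyond 1 left 1 rise and 0 falls under arsenic (from 4 and 1), 2 and 2 under cadmium (from 4 and 4), and 4 and 4 under mercury (from 9 and 7). It left 2 rises and 0 falls of the other p53 targets at 24 h of arsenic (from 7 and 3), 2 and 1 for cadmium (from 4 and 3), and 3 falls for mercury (from 9). The falls under arsenic numbered 2 with no filter on low counts and 2 in DESeq2. The other targets higher at 24 h of cadmium numbered 2 with no filter and 2 when only the libraries compared were fitted, which gave 1 lower. Leaving out each replicate gave 2 to 3 rises and 0 to 2 falls under arsenic, 3 to 4 and 2 to 3 under cadmium, and 7 to 9 and 4 to 7 under mercury. For the other targets it gave 6 to 7 and 3 to 4 for arsenic, 2 to 3 and 2 to 4 for cadmium, and 8 to 9 and 6 to 8 for mercury. The lowest member counts came without non-treated replicate 3 (2 rises under arsenic), without arsenic replicate 2 or 3 or non-treated replicate 1 (0 falls), without cadmium replicate 1 or non-treated replicate 1 (2 falls), and without mercury replicate 2 (4 falls). The cause was not tested.

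Same-numbered treated and non-treated libraries deviated with a median correlation of -0.00799 over 45 pairs (-0.278 to 0.0837), so replicate numbers were not used as pairs. With the replicate number as a block, the member rises stayed at 4, 4 and 9 for arsenic, cadmium and mercury and the falls at 1, 3 and 7, with the call of DDB2 at 6 h of cadmium lost, and the other targets gave 7 and 3, 4 and 3, and 8 and 9. Low counts limited SESN1 and TP53INP1.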
